A study of Mus musculus with 5 samples.

Results

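Chemokines and their receptors were examined in GFP-positive cells sorted from newborn mouse lung. The genes were those whose symbols name a C-C or C-X-C motif chemokine ligand or receptor, together with Cx3cl1, Cx3cr1, Xcl1, Xcr1, Ackr3, Ccrl2, Pf4 and Ppbp. Of 18194 genes with a probe set assigned to a single symbol, 53 met this rule, 35 ligands and 18 receptors, on 81 of 34958 such probe sets. For genes with several probe sets, the brightest on average stands for the gene. Ccl19, Ccl21a, Ccl26 and Cxcr1 were not analysed here.

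All samples were SPC-GFP pups on postnatal day 2, born to SPC-GFP mice mated with the outbred ICR strain. SPC commonly stands for surfactant protein C, a product of alveolar type 2 cells. Lungs seen to be GFP-positive under the microscope were dissociated with trypsin and EDTA, and GFP-positive cells were collected by flow cytometry. There were 5 biological replicates of 1 group with 1 array each, so no treatment, age, genotype or GFP-negative fraction could be compared. How many pups made up a replicate is not given in the sources used here, so the p-values speak only of how far these 5 samples spread.

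Chemokines are small secreted proteins that direct the migration of leukocytes along gradients held on heparan sulphate. They are classed by the spacing of their first cysteines, as CC, CXC, CX3C or C, and act on receptors coupled to inhibitory G proteins. Some are constitutive and place cells during development, as Cxcl12 does through Cxcr4. Others are induced through NF-kB or interferon signalling during injury or infection. In the lung both epithelium and macrophages make them, and Cxcl15, also called lungkine, is best known from lung epithelium.

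The labels name the sorted cells as alveolar type 2 cells in titles and as ciliated cells in the design text. Surfactant genes and other alveolar type 2 markers lay above background for 10 of 10 genes (Sftpc 14.67 ± 0.053, SD, n = 5), and ciliated markers for 8 of 8. Marker lists of other cells were read against the 74.7% of all genes that lay above background. Macrophage and monocyte markers lay above background for 13 of 13 genes and pan-leukocyte markers for 6 of 6, which exceeds that share. Neutrophil and lymphocyte markers did so for 8 of 10 genes each, close to the share of all genes. Fibroblast and smooth muscle markers (10 of 11) and endothelial markers (9 of 9) lay above background more often than all genes. Platelet markers did so in 4 of 5 cases, again close to the share of all genes. Erythroid markers lay above background for 2 of 4 genes, which is under the share of all genes. These shares were not tested. Which cells of the sort supplied a chemokine transcript was not tested, and fewer cells of a type cannot be told apart from less RNA per cell.

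Values are log2 signals as deposited, and levels were not ranked between genes, since probe sets differ in their response. Background was set on each array from 75 olfactory, taste and vomeronasal receptor genes, at their 95th percentile, and ran from 5.48 to 5.72. Genes were called above it where limma's one-sided moderated test gave a p under 0.05 after Benjamini-Hochberg adjustment over 18119 genes. Of these genes 74.7% passed. The hybridisation controls for bioB and bioC averaged 12.40 in replicate 1 and 11.48 to 11.61 in the others. The 3′ minus 5′ difference of the Actb control probe sets was 0.84 in replicate 3 and 0.54 to 0.60 in the others. These arrays therefore differed in technical measures too, and their part in the results below was not tested.

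Promoter sequences of 6 members are shown first, because 5 of them carry the kappa-B motif, the binding site of NF-kB, and the genes differed in how they varied between the replicates. Each runs from 250 bases before to 50 bases after the gene's start on the sense strand, from RefSeq on GRCm38.p6. Capitals mark every match to the kappa-B consensus on either strand, and overlapping matches run together.
Cxcl1: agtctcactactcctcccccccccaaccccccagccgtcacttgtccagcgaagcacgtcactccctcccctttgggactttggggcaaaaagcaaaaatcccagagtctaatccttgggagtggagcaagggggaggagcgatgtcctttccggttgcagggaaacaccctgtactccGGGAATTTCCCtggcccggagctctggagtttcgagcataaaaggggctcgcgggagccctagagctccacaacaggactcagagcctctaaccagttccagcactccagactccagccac
Cxcl2: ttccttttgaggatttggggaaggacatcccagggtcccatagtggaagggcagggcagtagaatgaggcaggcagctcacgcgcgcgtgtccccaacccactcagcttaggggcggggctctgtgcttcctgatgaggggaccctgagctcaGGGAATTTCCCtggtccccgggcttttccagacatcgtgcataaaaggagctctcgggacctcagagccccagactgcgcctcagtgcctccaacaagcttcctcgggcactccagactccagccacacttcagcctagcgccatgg
Cxcl3: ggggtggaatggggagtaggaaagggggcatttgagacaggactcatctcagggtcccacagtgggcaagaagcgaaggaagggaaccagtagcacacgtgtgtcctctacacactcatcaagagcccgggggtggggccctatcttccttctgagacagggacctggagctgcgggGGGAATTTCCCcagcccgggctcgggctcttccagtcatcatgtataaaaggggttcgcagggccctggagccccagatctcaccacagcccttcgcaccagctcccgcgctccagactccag
Cxcl10: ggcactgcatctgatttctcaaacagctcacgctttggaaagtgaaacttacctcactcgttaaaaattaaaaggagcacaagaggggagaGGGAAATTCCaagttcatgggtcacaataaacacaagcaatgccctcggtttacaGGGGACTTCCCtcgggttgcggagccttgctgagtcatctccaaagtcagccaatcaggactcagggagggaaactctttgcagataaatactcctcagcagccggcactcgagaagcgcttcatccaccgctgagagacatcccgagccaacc
Ccl20: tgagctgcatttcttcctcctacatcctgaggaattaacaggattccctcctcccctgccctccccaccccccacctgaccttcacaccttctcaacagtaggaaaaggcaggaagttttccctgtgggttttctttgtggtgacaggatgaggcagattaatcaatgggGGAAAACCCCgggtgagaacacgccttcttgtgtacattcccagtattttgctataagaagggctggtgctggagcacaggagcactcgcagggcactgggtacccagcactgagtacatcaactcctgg
Cxcl15: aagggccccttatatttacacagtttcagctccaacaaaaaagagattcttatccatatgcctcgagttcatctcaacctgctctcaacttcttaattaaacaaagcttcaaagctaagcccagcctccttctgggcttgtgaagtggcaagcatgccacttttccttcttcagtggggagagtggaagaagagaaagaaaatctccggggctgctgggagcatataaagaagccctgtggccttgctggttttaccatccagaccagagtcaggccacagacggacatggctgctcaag

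The Cxcl1 window lies at chr5:90890995-90891294 on the plus strand, that of Cxcl2 at chr5:90903649-90903948 on the plus strand and that of Cxcl3 at chr5:90785851-90786150 on the plus strand. The Cxcl15 window, at chr5:90794284-90794583 on the plus strand, comes from the same chromosome. Cxcl10 lies at chr5:92348840-92349139 on the minus strand and Ccl20 at chr1:83116516-83116815 on the plus strand. Cxcl1, Cxcl2 and Cxcl3 share the run GGGAATTTCCC, which begins 71, 97 and 73 bases before the start. Cxcl10 holds 2 separate marked runs, and the Ccl20 match begins 80 bases before the start. The letters of the motif were not found in the Cxcl15 window.

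Promoter windows were found for 40 of the 53 members, 46 windows in all. The others were Cxcl5, Cxcl11, Cxcl16, Cxcl17, Ccl2, Ccl4, Ccl5, Ccl7, Ccl11, Ccl24, Ccr7, Ccr10 and Cxcr5. The kappa-B consensus matched 12 of these 46 windows and 8.46% of all 32851 windows of the same length. By gene, 9 of the 25 members above background with a window held it, and 3 of the 15 others. The interferon-stimulated response element, searched on both strands as a pair of GAAA runs with any 2 bases between them, matched 2 members, Cxcl10 and Cxcl14, against 3.44% of all windows. On both strands, the AP-1 motif TGANTCA matched 8 members (7.81% of all windows), and the NKX2 family motif TCAAGTG matched 1, Ccrl2 (3.06%). Matches are descriptions of the sequence, and binding was not measured.

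Of the 53 members, 33 lay above background (62.3%, against 74.7% of all genes tested). By kind, 26 of 35 ligands and 7 of 18 receptors passed, and the difference between ligands and receptors was not tested. The counts by role below rest on few genes each and were not tested against the 74.7% of all genes. The median distance from background was 1.85 log2 units for ligands, −0.09 for receptors and 3.40 for all genes. Adjusted p-values of the 33 ran from 1.44e-20 to 0.0227 (limma), and 32 of the 33 exceeded the background of every single array, Ppbp being the exception. Among the 20 other members, 13 lay under the background of every array. The members closest to the threshold were Ccl24, called at 0.33 log2 units above background (limma adjusted p = 0.0227), and Ccl5, not called at 0.17 (adjusted p = 0.228). With 37 organ-restricted genes in place of the receptor genes, a background of 8.09 to 8.97, 16 of the 53 were called, against 51.7% of all genes.

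**Figure D1:**
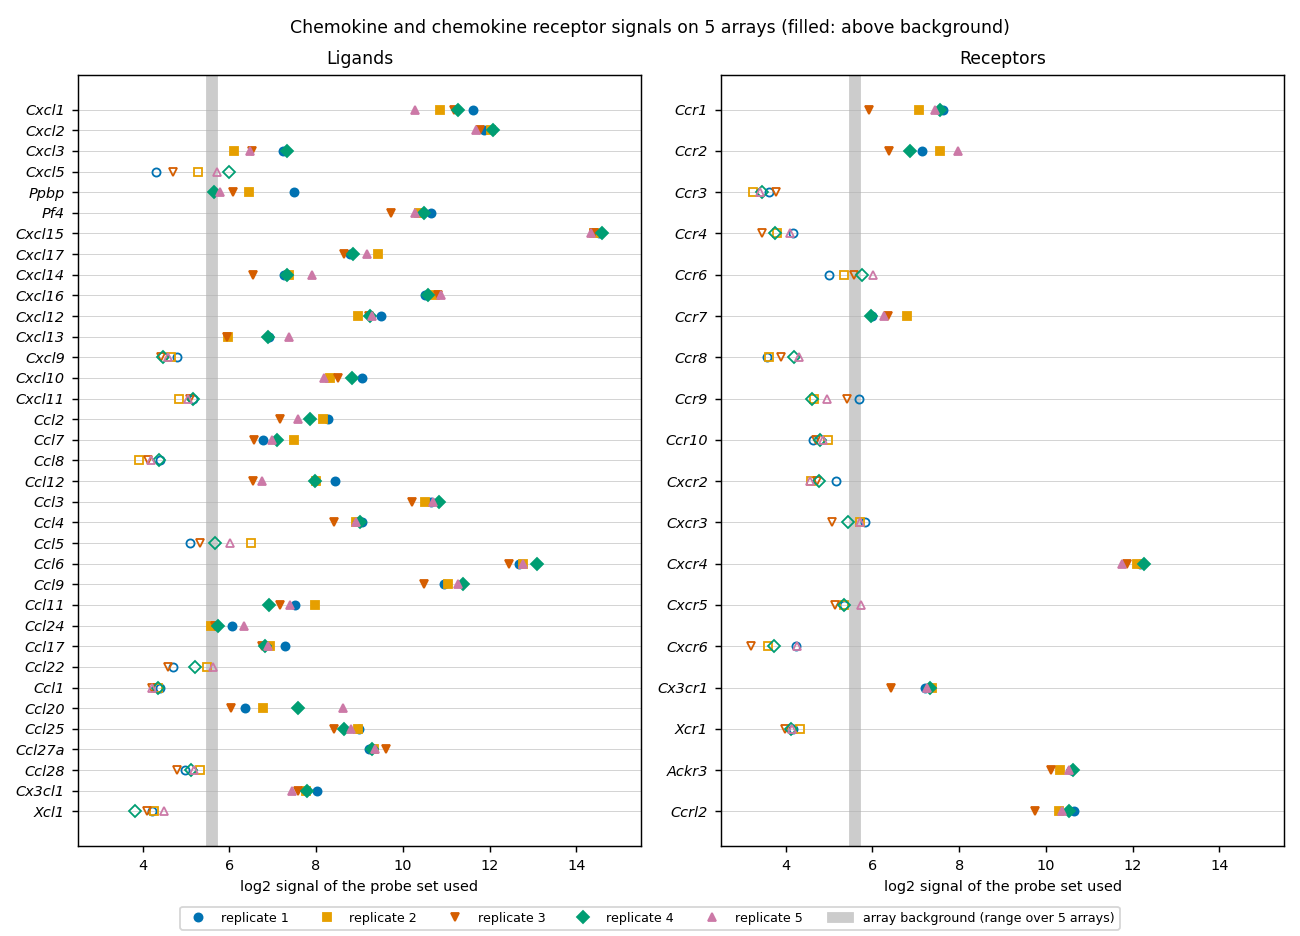
Log2 signal (horizontal axis) of the probe set used for each of 35 ligands and 18 receptors, with 1 point per replicate; filled points belong to genes above background and the grey band spans the background of the 5 arrays, 5.48 to 5.72. Cxcl15 lies near the upper end of the scale on all arrays, and 11 of the 18 receptors have open points within or left of the band or close to it.

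All 4 lung and mucosal CXC ligands lay above background. Cxcl15, a neutrophil attractant of lung epithelium, read 14.52, 14.41, 14.42, 14.59 and 14.35 in replicates 1 to 5. These values lie close together and near the upper end of the scale. Its second probe set averaged 14.33 ± 0.044.

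Cxcl17, a chemokine of mucosal surfaces, read 8.78, 9.42, 8.64, 8.86 and 9.17 in replicates 1 to 5. Cxcl16, which is made as a membrane-anchored protein and also binds oxidised lipoprotein, read 10.51, 10.75, 10.80, 10.58 and 10.88. Cxcl14, a chemokine of resting epithelium and fibroblasts, read 7.27, 7.37, 6.54, 7.32 and 7.90. Cxcl14 was thus low in replicate 3 and high in replicate 5, while Cxcl16 varied by only 1.28-fold between its extremes. The further probe set of Cxcl14 had the same lowest and highest replicates, at 5.43 and 6.66.

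The homeostatic ligands Cxcl12 and Cxcl13 were both above background. Cxcl12, which retains progenitors and guides vessels, read 9.49, 8.97, 9.21, 9.24 and 9.29. Its second probe set did not follow the first, with 8.92, 9.35, 8.15, 8.77 and 9.41 in the same order. That second series was lowest in replicate 3 and highest in replicate 5, as was the median of the fibroblast and smooth muscle markers (−0.57 and 0.41), and its relation to them was not tested. Cxcl13, which attracts B lymphocytes, read 6.92, 5.97, 5.95, 6.88 and 7.36, a 2.66-fold range with replicates 2 and 3 low. A second probe set of Cxcl13 was likewise highest in replicate 5 (7.18), but lowest in replicate 2 (6.03).

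Ligands that attract neutrophils through Cxcr2 or derive from platelets gave 5 of 6 members above background. Cxcl1 read 11.62, 10.85, 11.18, 11.28 and 10.28 in replicates 1 to 5, a 2.53-fold range between replicate 1 and replicate 5. All 3 probe sets of Cxcl1 were highest in replicate 1 and lowest in replicate 5, with the 2 further ones spanning 10.04 to 11.53 and 9.87 to 11.34. Cxcl3 read 7.24, 6.11, 6.53, 7.34 and 6.47, so replicates 1 and 4 were high as they were for Cxcl1.

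Cxcl2 varied less, at 11.88, 12.03, 11.77, 12.08 and 11.68, a 1.32-fold range. The promoter windows of Cxcl1, Cxcl2 and Cxcl3 shown above thus share a kappa-B run, while Cxcl2 had the narrowest range of the 3. Cxcl5, a related epithelial ligand, was not above background and had 4.32, 5.28, 4.70, 6.0 and 5.71. These values lay on both sides of background, so the order of Cxcl5 over the replicates was not read.

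The platelet alpha-granule chemokines Pf4 and Ppbp were both called. Pf4, which macrophages can also express, read 10.64, 10.37, 9.73, 10.48 and 10.29 and was lowest in replicate 3. Ppbp read 7.50, 6.46, 6.09, 5.64 and 5.78, with replicate 1 well above the rest and replicate 4 below that array's background. Without replicates 1 and 3 together Ppbp was not called (limma adjusted p = 0.0550). Of the 4 platelet markers above background, 1 was highest in replicate 1 as Ppbp was, and the list's median deviations were 0.08, −0.16, −0.09, −0.15 and −0.07.

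**Figure D2:**
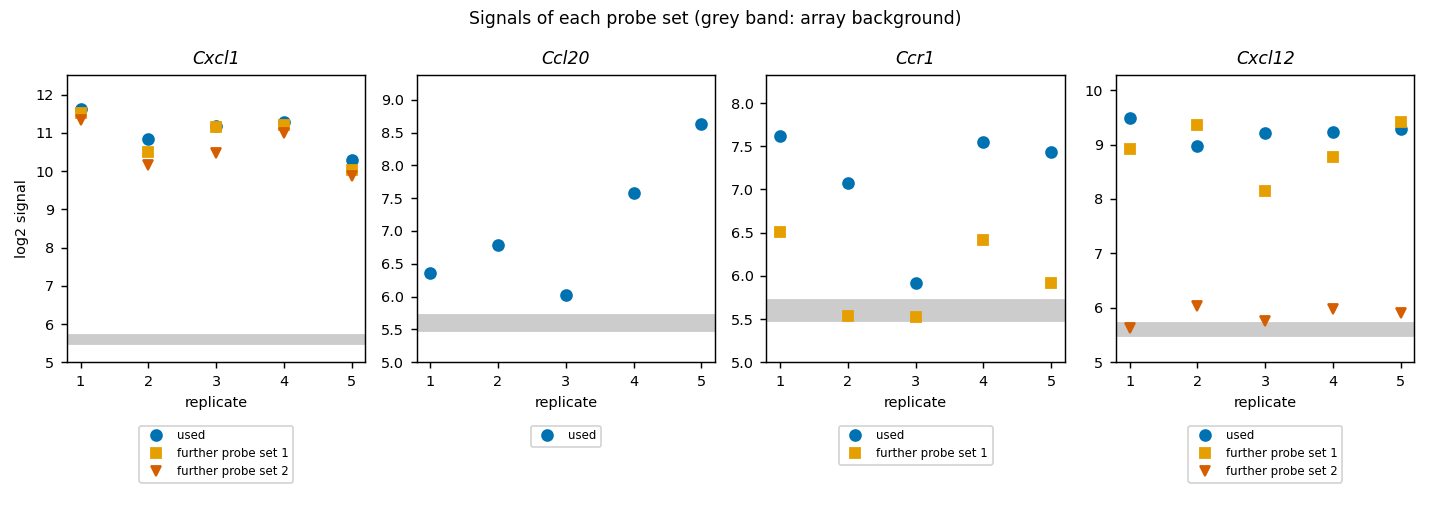
Log2 signal (vertical axis) by replicate (horizontal axis) for every probe set of Cxcl1, Ccl20, Ccr1 and Cxcl12; the grey band spans the array backgrounds of 5.48 to 5.72. The 3 probe sets of Cxcl1 share their highest and lowest replicates, whereas the first and second probe sets of Cxcl12 differ in both.

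Of the interferon-induced ligands of Cxcr3, 1 of 3 lay above background. Cxcl10 read 9.05, 8.32, 8.51, 8.83 and 8.19, highest in replicate 1 and lowest in replicate 5, as Cxcl1 was. Cxcl9 and Cxcl11 had 4.58 ± 0.14 and 5.06 ± 0.14, under the background of every array. Cxcl10 was also the member whose promoter window held the interferon response element together with the kappa-B motif. With organ-restricted genes as background Cxcl10 was not called (limma adjusted p = 0.257).

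Ligands that recruit monocytes gave 7 of 9 members above background (77.8%), close to the 74.7% of all genes. All 7 were lowest in replicate 3, against 24.6% of all genes above background. Ccl2 read 8.27, 8.16, 7.17, 7.86 and 7.58, and Ccl12, its close relative in the mouse, read 8.44, 8.0, 6.55, 7.97 and 6.76. Ccl12 spanned 3.72-fold, with replicates 3 and 5 low. Ccl7, of the same group, read 6.77, 7.49, 6.58, 7.09 and 6.98.

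The macrophage inflammatory proteins Ccl3, a ligand of Ccr1, and Ccl4 followed the same order at the low end. Ccl3 read 10.65, 10.51, 10.20, 10.83 and 10.70. Ccl4 read 9.07, 8.93, 8.41, 9.0 and 8.93, with replicate 3 apart from 4 values that lay close together.

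Ccl6 and Ccl9, rodent chemokines made by macrophages and other myeloid cells, were highest in replicate 4 and lowest in replicate 3. Ccl6 read 12.67, 12.77, 12.45, 13.09 and 12.77, and Ccl9 read 10.95, 11.04, 10.49, 11.39 and 11.26. A second probe set of Ccl6 had the same extremes (11.20 and 11.83), while that of Ccl9 was lowest in replicate 2 (6.97) and highest in replicate 1 (7.73). Ccl8 had 4.20 ± 0.21 and was not called. Ccl5, a ligand made by T cells among others, read 5.10, 6.5, 5.33, 5.66 and 6.01, on both sides of background.

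Among ligands of type 2 immunity, 3 of 5 lay above background. The eosinophil attractant Ccl11 read 7.51, 7.97, 7.17, 6.92 and 7.40, high in replicate 2. Ccl24, which shares the receptor Ccr3 with it, had 5.88 ± 0.31, and its call was lost without replicate 1 or without replicate 5 (limma adjusted p = 0.0684 and 0.113). Ccl17, a Ccr4 ligand, had 6.93 ± 0.21. Ccl22, the other Ccr4 ligand, had 5.12 ± 0.46 and Ccl1 4.31 ± 0.09, and neither was called.

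Mucosal and homeostatic CC ligands gave 3 of 4 members above background, among them the member that varied most. Ccl20, an epithelial attractant of dendritic cells and lymphocytes that carry Ccr6, read 6.36, 6.78, 6.03, 7.58 and 8.63. Its range of 2.60 log2 units, or 6.06-fold, was the widest of the 33 members, with replicates 4 and 5 high and replicate 3 low. It rests on a single probe set. Of the 4 club and secretory markers, 1 (Scgb3a1) was lowest in replicate 3 and highest in replicate 5 like Ccl20, and the list's median deviations were −0.17, 0.17, −0.02, 0.01 and −0.02.

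Ccl25, known for guiding cells to the thymus and gut, had 8.76 ± 0.25. Ccl27a, an epithelial ligand of Ccr10, had 9.37 ± 0.15, on a probe set whose suffix marks possible cross-hybridisation. Ccl28 had 5.08 ± 0.20 and was not called. The membrane-anchored ligand Cx3cl1 read 8.01, 7.77, 7.58, 7.78 and 7.45. Its further probe sets averaged 6.52, 4.03 and 3.63, so only 1 of the 3 lay over background, and with the median over probe sets it was not called. Xcl1, of the C class, had 4.18 ± 0.24.

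Few CC receptors gave signal, 3 of 9. Ccr1, a receptor of neutrophils and monocytes, read 7.62, 7.08, 5.92, 7.55 and 7.43, a 3.26-fold range with replicate 3 far below the rest. Its second probe set was low in replicates 2 and 3 (5.53 in both) and high in replicates 1 and 4 (6.5 and 6.42). Ccr2, the receptor of inflammatory monocytes, read 7.14, 7.55, 6.38, 6.86 and 7.98. The 3 further probe sets of Ccr2 averaged 3.95 to 4.84, under background, and with the median over probe sets the call was lost.

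Ccr7, which takes dendritic cells and lymphocytes to lymph nodes, had 6.28 ± 0.34 and lay 0.74 log2 units over background. Ccr3, Ccr4, Ccr6, Ccr8, Ccr9 and Ccr10 were not called, with means of 3.50 (Ccr3), 3.85 (Ccr4), 5.53 (Ccr6), 3.92 (Ccr8), 5.06 (Ccr9) and 4.79 (Ccr10). Ccr6 crossed the background range, at 4.99, 5.34, 5.57, 5.75 and 6.02, so its order over the replicates was not read.

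Of the CXC receptors, Cxcr4 alone passed among 5. Cxcr4, the receptor of Cxcl12, read 12.18, 12.09, 11.87, 12.25 and 11.75, a 1.42-fold range. Cxcr2, the main receptor of the Cxcl1 group on neutrophils, had 4.76 ± 0.24 and lay under background on every array. Cxcr3, Cxcr5 and Cxcr6, of T and B lymphocytes, had 5.55 ± 0.31, 5.38 ± 0.22 and 3.80 ± 0.45 and were not called. With the 90th percentile as background Cxcr3, Cxcr5, Ccr6 and Ccl5 were called too (limma adjusted p = 0.00641, 0.0200, 0.00534 and 0.00423).

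The fractalkine receptor Cx3cr1, of monocytes and resident macrophages, read 7.22, 7.37, 6.43, 7.33 and 7.26. Replicate 3 stood apart from the other 4 replicates, which lay between 7.22 and 7.37. Its second probe set averaged 4.07, under background. Xcr1, of cross-presenting dendritic cells, had 4.15 ± 0.13.

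Both atypical receptors in the set lay above background. Ackr3, which binds Cxcl12 and Cxcl11 and removes them without G protein signalling, read 10.57, 10.31, 10.11, 10.63 and 10.53. Ccrl2, which binds chemerin and presents it to other cells, read 10.66, 10.30, 9.75, 10.52 and 10.38. Both were lowest in replicate 3. Each rests on a single probe set, and that of Ackr3 has a suffix that marks possible cross-hybridisation to similar transcripts.

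Known ligand and receptor pairs were then read together, for 34 pairs with both partners measured. Both partners lay above background in 10 pairs, the ligand alone in 13, the receptor alone in 2 and neither in 9. These are counts only, since how often any 2 genes both pass was not worked out. Singly, 74.7% of all genes passed. The 10 were Cxcl12 with Cxcr4 and with Ackr3, Cx3cl1 with Cx3cr1, Ccl2, Ccl7 and Ccl12 with Ccr2, and Ccl3, Ccl6, Ccl7 and Ccl9 with Ccr1. With the median over probe sets, Ccr2, Cx3cl1 and Cx3cr1 were not called. The pairs of Ccr2 and that of Cx3cl1 with Cx3cr1 therefore depend on the choice of the brightest probe set. Ligands above background whose receptor was not called included Cxcl1, Cxcl2, Cxcl3 and Ppbp (Cxcr2), Cxcl16 (Cxcr6), Ccl20 (Ccr6), Ccl25 (Ccr9) and Ccl27a (Ccr10). The 2 receptors called without the ligand were Ackr3 for Cxcl11 and Ccr1 for Ccl5.

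Members above background varied between replicates by a median range of 0.86 log2 units (median SD 0.35), against 0.38 (median SD 0.15) for all genes above background. The members were also dimmer, at a median of 3.03 log2 units over background against 4.5 for those genes. A range of at least 1 log2 unit was found in 11 of the 33, against 9.82% of the 13540 genes above background, and in 8 of 33 without replicate 3, against 6.53%. Among the 16 members above the organ-restricted background it was found in 1, against 4.19% of all genes above it, so the wider ranges lay mostly in members of lower signal. In the F test of each gene's variance against the variance limma fits for genes of its signal, 0 of the 33 passed after Benjamini-Hochberg adjustment, with 0% of all genes. Without adjustment 7 had a p under 0.05, against 5.61% of all genes. These were Cxcl1, Ppbp, Ccl12, Ccl6, Ccl9, Ccl20 and Ccr1, with unadjusted p from 0.0106 for Cxcl1 to 0.0459 for Ccl6. No gene on the arrays passed the adjusted test, so the wider spread of these members rests on the description alone.

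**Figure D3:**
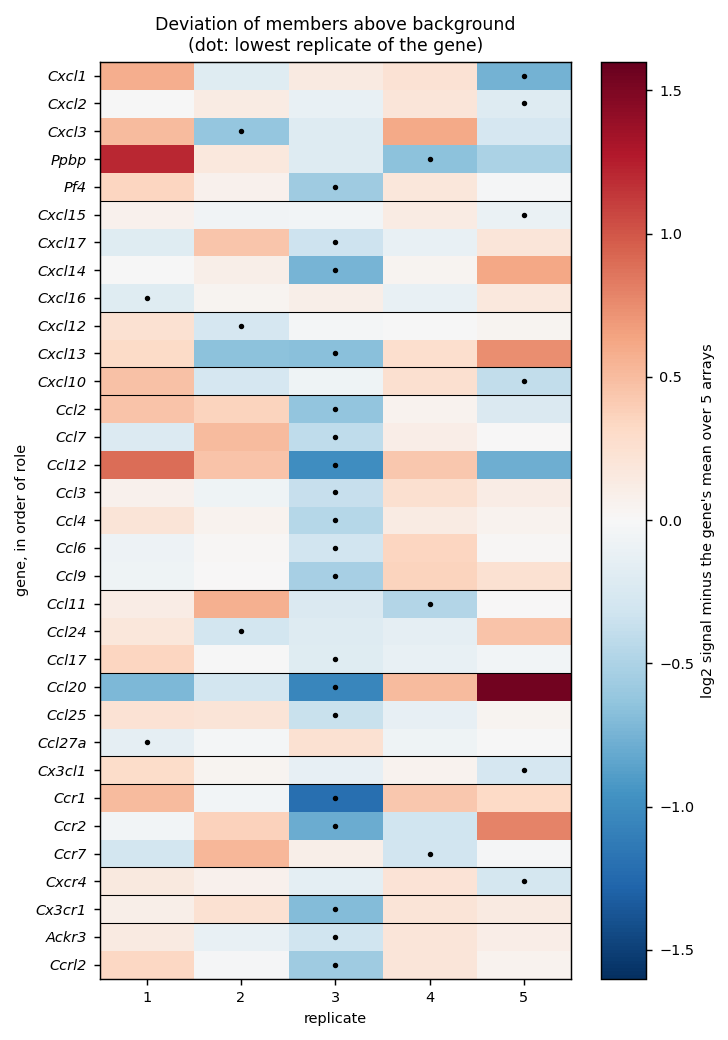
Deviation of each of the 33 members above background (vertical axis, in order of role) from its own mean, in log2 units (colour), in replicates 1 to 5 (horizontal axis); a dot marks the lowest replicate of each gene and lines separate the roles. The dots of all 7 monocyte-attracting ligands, from Ccl2 to Ccl9, lie in replicate 3, and the darkest red cells are Ccl20 in replicate 5 and Ppbp in replicate 1.

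Replicate 3 was the lowest for 19 of the 33 members, against 24.6% of all genes above background, and the highest for 1, Ccl27a, against 26.6%. Replicate 1 was the highest for 13 of the 33 (22.4% of all genes) and the lowest for 2 (22.8%). In replicate 2, 5 members were highest (16.2% of all genes) and 3 lowest (19.9%). In replicate 4, 8 were highest (13.5%) and 3 lowest (18%). In replicate 5, 6 were highest (21.2%) and 6 lowest (14.7%). The members thus departed from all genes mainly at replicate 3, and at the high end at replicates 1 and 4; these shares were not tested. The median deviation of the 33 members from their own means was 0.15, 0.05, −0.32, 0.14 and 0.01 in replicates 1 to 5, while that of all genes above background stayed between −0.02 and 0.02. The Gapdh 3′ minus 5′ difference ran over the replicates in the reverse order of the members' medians, and its part was not tested. Without replicate 3 the range of the members' medians was 0.14 log2 units, against 0.47 with it.

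The roles differed in the replicate that was high. The 7 monocyte-attracting ligands had median deviations of 0.07, 0.06, −0.46, 0.26 and 0.01, and the 7 receptors 0.14, 0.07, −0.57, 0.20 and 0.10. The 5 neutrophil-attracting and platelet ligands had 0.50, 0.07, −0.20, 0.19 and −0.27, so replicate 1 was high and replicate 5 low. These medians were not tested.

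Some marker lists of other cells were lowest in replicate 3 and others were not. Macrophage and monocyte markers had median deviations of 0.01, −0.03, −0.47, 0.17 and 0.26, and 10 of the 13 were lowest in replicate 3. Neutrophil markers had 0.50, −0.28, −1.04, 0.74 and 0.02, with 8 of the 8 above background lowest in replicate 3, Il1r2 in a tie with replicate 4. Fibroblast and smooth muscle markers had −0.03, 0.33, −0.57, −0.07 and 0.41, with 10 of 10 lowest in replicate 3, and pan-leukocyte markers were lowest there in 6 of 6. Ciliated markers had 0.86, 0.33, −0.51, −0.39 and −0.37. Lymphocyte markers were lowest in replicate 4 (0.09, 0.12, −0.17, −0.25 and 0.27), with 2 of 8 genes lowest in replicate 3. Endothelial markers were lowest in replicate 2 (0.07, −0.18, −0.14, −0.05 and 0.14), and alveolar type 1 markers in replicate 1 (−0.14, 0.08, 0.05, −0.08 and 0.05). The platelet list was lowest in replicate 2 and the club and secretory list in replicate 1. Alveolar type 2 markers had 0.03, −0.06, 0.03, 0.07 and −0.07, but their mean signals of 12.96 to 14.71 lie near the upper end of the scale. The part of leukocyte and mesenchymal RNA in the low chemokine values of replicate 3 was not tested.

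**Figure D4:**
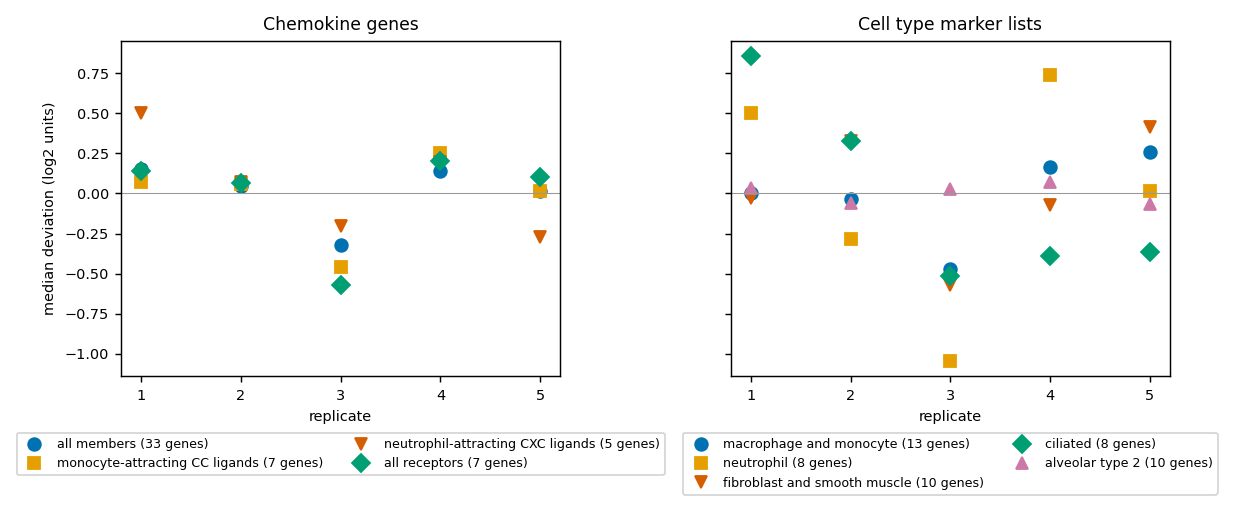
Median deviation from each gene's own mean (vertical axis, log2 units) by replicate (horizontal axis), for chemokine genes (left) and cell type marker lists (right), over the members above background. Replicate 3 is lowest for all members, the monocyte-attracting ligands, the receptors and the macrophage, neutrophil, fibroblast and ciliated lists, but not for the alveolar type 2 list or the neutrophil-attracting ligands, which are lowest in replicate 5.

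Other genes of chemokine signalling lay above background in 58 of 64 cases, against 74.7% of all genes, with a median distance from background of 4.64 log2 units, against 3.40. With organ-restricted genes as background 44 of the 64 were called, against 51.7% of all genes. All 16 G protein and effector genes passed, among them the inhibitory alpha subunits Gnai2 (12.62 ± 0.03) and Gnai3 (11.89 ± 0.09) and the beta subunits Gnb1 (14.00 ± 0.06) and Gnb2 (11.32 ± 0.08). The leukocyte effectors Dock2 and Rac2, which drive migration, had 8.19 ± 0.48 and 8.79 ± 0.57 and were lowest in replicate 3 (7.46 and 7.83). Of the genes that desensitise receptors 8 of 9 passed, with the arrestin genes Arrb1 and Arrb2 at 10.21 ± 0.29 and 9.5 ± 0.12. The receptor kinase genes Grk5 and Grk6 had 8.73 ± 0.13 and 10.17 ± 0.19. Rgs18, of platelets and leukocytes, did not pass (4.71 ± 0.30).

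All 15 NF-kB and cytokine genes passed. Of the NF-kB subunits Rela had 10.69 ± 0.13, Relb 8.31 ± 0.15 and Nfkb2 9.32 ± 0.12, and Nfkbia, the inhibitor that NF-kB itself induces, 13.59 ± 0.07. Il1b, an inducer of Cxcl1 and made mainly by myeloid cells, read 11.55, 10.85, 10.25, 11.22 and 11.31. Il6, another NF-kB target, read 8.25, 7.55, 8.0, 8.04 and 7.43, so its highest and lowest replicates were those of Cxcl1 and Cxcl10. Tnf had 8.83 ± 0.10 and varied less. Il1b, Il6, Tnf, Dock2 and Rac2 were picked out after their values were seen.

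Transcripts for surfaces and enzymes that hold or trim chemokines were read as well. All 10 heparan sulphate genes passed, with the syndecans Sdc1 and Sdc4 at 14.10 ± 0.07 and 14.01 ± 0.09, Sdc2 at 11.07 ± 0.18 and Sdc3 at 7.89 ± 0.14. Of the proteases 6 of 9 passed (66.7%, against 74.7% of all genes). Among them was Dpp4, which shortens many chemokines at the amino end (13.64 ± 0.09). The sheddases of Cx3cl1 and Cxcl16, Adam10 (12.39 ± 0.10) and Adam17 (12.31 ± 0.17), passed too. Mmp2, a matrix protease of fibroblasts that also cuts chemokines, had 11.10 ± 0.45. Of the proteases of macrophages and neutrophils, Mmp9 was called (6.83 ± 0.75) and was lowest in replicate 3 (5.87). Mmp12, Ctsg and Elane were not called (4.66 ± 0.47, 5.33 ± 0.25 and 4.21 ± 0.18).

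Among 5 further atypical receptors and chemokine-binding genes, Ackr2, a scavenger of inflammatory CC chemokines, had 8.97 ± 0.10 and Ackr4, a scavenger of Ccl19, Ccl21 and Ccl25, 11.42 ± 0.07. Pitpnm3 had 10.57 ± 0.31. Ackr1, the Duffy antigen of red cells and venules, had 5.70 ± 0.33 (limma adjusted p = 0.179), and the chemerin receptor gene Cmklr1 5.97 ± 0.79 (adjusted p = 0.0692), and neither was called. Ccrl2, which also binds chemerin, was above background in the same samples.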

How the data were processed

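Biotin-labelled RNA, amplified with NuGEN Ovation kits, was hybridised to 1-colour Affymetrix arrays, per the labels' protocols. The deposited table holds 1 value per probe set and array, read here as log2 signal because of its range (2.46 to 15.24); how the authors summarised and normalized it is not stated in the labels or headers. Array medians ran from 7.12 to 7.19. Of 45101 probe sets, 34958 carried a single gene symbol in the platform annotation; 932 with several symbols (4 of them naming a member) and 9211 without a symbol here were not used. An intercept was fitted per gene to signal minus array background (limma 3.58.1, R 4.3.3, eBayes with trend). The spread test divided each variance by limma's robust prior variance (4 and 3.86 degrees of freedom). Both were tested on simulated data. Medians over a list used at least 3 genes above background.

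Every member is named. Array values were set to be given for members with a range of at least 1 log2 unit, for lung, mucosal and homeostatic CXC ligands and for atypical receptors, and means for the rest; array values of further members were added after they were seen. Members, lists and tests were chosen with earlier results of these data known. Alternatives changed the background, probe set choice, normalization, filter, trend and arrays. With 5 arrays, their number limits the precision.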

Additional observations from a re-analysis of the deposited data

Results flagged for a closer look

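A sample was set apart where its gap to the nearest other replicate, divided by the range of the 5, exceeded 0.71 (Dixon's criterion), which chance gives in about 1 of 20 groups. Of the 33 members above background 2 met it, against 5.34% of all genes above background. Cx3cr1 had a ratio of 0.84 and Ccl4 a ratio of 0.783, both from a low value in replicate 3 (6.43 and 8.41). The median deviation of the 7 receptors above background had a ratio of 0.828, with −0.57 in replicate 3. Among the array controls, the bioB and bioC mean had a ratio of 0.86 from a high value in replicate 1 (12.40), and the Actb 3′ minus 5′ difference a ratio of 0.812 from a high value in replicate 3 (0.84). The part of these controls in the low receptor values was not tested.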

How the results depend on the processing

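No paired analysis was possible because there was 1 group. Apart from organ-restricted genes as background, the alternatives gave 28 to 37 members and 51 to 60 pathway genes above background. The 51 were of 58 pathway genes measured without cross-hybridising probe set types, a setting that also left 47 members. Where all 64 pathway genes were measured, 56 to 60 were called. Without each replicate in turn the members numbered 32 to 33. The adjusted spread test passed 0 members under every alternative. With the main settings it passed no gene on the arrays, so this count says little about stability. Ranges of at least 1 log2 unit and the count of members lowest in replicate 3 were added after the data were seen. The former was 8 to 10 of 32 or 33 members without each replicate in turn (6.53% to 8.64% of all genes), against 11 of 33 (9.82%). Without replicates 1 and 3 together it was 6 of 32 (3.53%). Apart from organ-restricted genes, the latter was 16 to 22 of 28 to 37 members, against 19 of 33. The share of all genes lowest in replicate 3 was then 23.3% to 29.2%, against 24.6%.

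With organ-restricted genes as background, 16 of 53 members and 44 of 64 pathway genes were called, against 51.7% of all genes. Of the 16 members, 1 had such a range (4.19% of all genes) and 9 were lowest in replicate 3 (21.2% of all genes), so the excess of wide ranges was not seen there. The highest few of those genes set that level. Distances from background (log2) then turned negative for Ccl11 (−0.95), Ccl12 (−0.80), Ccl17 (−1.41), Ccl2 (−0.54), Ccl20 (−1.27), Ccl24 (−2.47), Ccl7 (−1.36) and Ccr1 (−1.23). The same held for Ccr2 (−1.16), Ccr7 (−2.07), Cx3cl1 (−0.63), Cx3cr1 (−1.22), Cxcl13 (−1.73), Cxcl14 (−1.07), Cxcl3 (−1.61) and Ppbp (−2.05). With the 99th percentile of receptor genes they were negative for Ccl24 (−0.62), Ccr7 (−0.22) and Ppbp (−0.21), and with the median over probe sets for Ccr2 (−0.69) and Cx3cl1 (−0.10). These follow from a higher background or the inclusion of dimmer probe sets. Calls were also lost for Cxcl13 and Cxcl3 at the 99th percentile (limma adjusted p = 0.385 and 0.118) and for Cx3cr1 with the median over probe sets (adjusted p = 0.0844).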
